A study of Homo sapiens with 12 samples.

Results

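Ribosome footprints of HEK293T cells after 60 min of GSK-A1 were compared with footprints at 0 min, in 4 of the 12 libraries of the series. The 4 libraries were chosen by their titles: 2 ribosome-protected fragment (RPF) libraries labelled 60 min and 2 labelled 0 min. HEK293T is a transformed human embryonic kidney line. Every library carries the genotype label WT and the treatment label GSK-A1, so a 0 min library is an untreated reference only as far as its time says so, and no vehicle group is among the labels. The other libraries are RPF at 360 min and mRNA at 0, 60 and 360 min, again 2 each. Nothing in the labels says whether the replicates came from separate cultures, so the p-values measure only the spread between these libraries, which may be technical.

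A translating ribosome shields a short stretch of its mRNA from nuclease, and the number of such fragments from a transcript follows both how much of that mRNA the cell holds and how many ribosomes each copy carries. Footprints can therefore move before mRNA levels do, when ribosomes are loaded onto existing mRNA or withheld from it. GSK-A1 inhibits PI4KA, the lipid kinase that makes phosphatidylinositol 4-phosphate at the plasma membrane, a lipid that is exchanged for phosphatidylserine there and is a precursor of other signalling phosphoinositides. The first hour after an inhibitor is added is the time in which short-lived messages of signal-responsive genes are known to change in many cell lines, and the comparison asks which transcripts gained or lost footprints in that window.

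Rows of the deposited tables are Ensembl transcript identifiers, and the gene tables used here hold 0 of the 18338. No gene or gene class is therefore named, the labelled cell line was not checked against marker genes, and the transcripts are grouped by footprint level, mRNA level and behaviour in the replicates. Replicates 1 and 2 were sequenced to 1165740 and 811913 counts at 0 min and to 982894 and 655623 counts at 60 min. After scaling by trimmed mean of M-values (TMM), 1 count was worth 0.922 and 1.11 CPM, the counts of a transcript scaled by its library's effective total, at 0 min and 1.08 and 1.44 CPM at 60 min. Of 17140 transcripts listed in any of these libraries, 12751 were listed in all 4.

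No transcript passed the test at 60 min in the fit with time as the only factor, and 1 did, ENST00000239938, with the replicate number added as a block. With time alone in edgeR's quasi-likelihood test, 0 of 9653 transcripts (0%) stayed under 0.05 after Benjamini-Hochberg adjustment, and 223 (2.31%) had an unadjusted p-value under 0.05, of which 106 (1.1%) were higher and 117 (1.21%) lower at 60 min. With library totals in place of TMM the unadjusted split was 54 higher and 114 lower. DESeq2 also gave 0 transcripts at an adjusted p-value under 0.05, and 96 at an unadjusted p-value under 0.05. The median log2 change over all transcripts was −0.01, with quartiles at −0.29 and 0.27. The 106 higher transcripts had a median log2 change of 1.23 and the 117 lower ones of −1.20. Both libraries of 60 min lay above both of 0 min in 98 of these 223 and below in 111, whereas the libraries overlapped in the other 14. The 223 were picked by p-value from these same libraries, so this separation is no independent sign of agreement. Over all tested transcripts the libraries did not overlap for 31.2%. The higher and lower sets were thin in counts: the median sum over the 4 libraries was 123 counts, and 84 of the 223 had a library with under 10 counts.

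**Figure D1:**
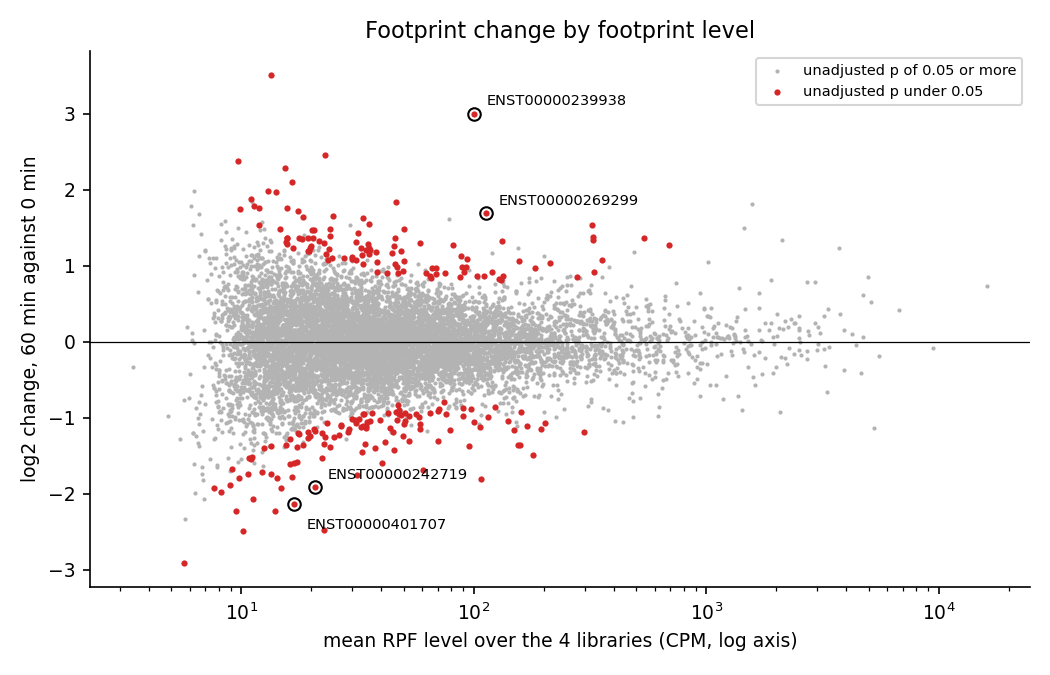
Log2 change of footprints at 60 min against 0 min for each of 9653 transcripts (vertical axis), by its mean RPF level over the 4 libraries in CPM (horizontal log axis). Red points are the 223 transcripts with an unadjusted p-value under 0.05, and circles mark the 4 transcripts described by identifier, of which ENST00000239938 lies at a log2 change of 3.0.

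The same result can be read as limits on the change. The 95% interval of the log2 change lay wholly within 2-fold, between −1 and 1, for 1521 transcripts (15.8% of those tested). For 3 transcripts the interval lay wholly beyond 2-fold, upward in each. The intervals are not adjusted for the number of transcripts tested. Adjusted edgeR p-values of the 3 were 0.482, 0.999 and 0.999, and 1 of them had only 1 and 3 counts at 0 min. The remaining transcripts could have changed by 2-fold or more in at least one direction without being detected. The number within 2-fold depended on the fit. With the replicate number added as a block and all RPF libraries kept, it was 2932. With time alone it depended on the 360 min libraries, which also enter the estimate of spread. It was 2822 without RPF 360 min replicate 1, 2965 without RPF 360 min replicate 2 and 2766 with the 4 compared libraries alone. Leaving out a 0 or 60 min library brought it to between 0 and 3. The highest share was found at an intermediate footprint level. At a mean of 50 to 200 CPM, 1060 of 2853 transcripts (37.2%) were held within 2-fold, against 358 of 5659 (6.33%) at 10 to 50 CPM and 103 of 794 (12.97%) at 200 CPM or more. None of the 347 transcripts under 10 CPM was held within 2-fold, and their median half-width of the interval was 1.72 on the log2 scale.

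Changes of footprints with time were compared directly with differences between replicates in the 7584 tested transcripts whose count reached 10 in all 4 libraries. The mean change from 0 to 60 min, taken over the log2 CPM of both replicates, was 2-fold or more for 123 transcripts (1.62%). The 2 libraries of 0 min differed from each other by 2-fold or more for 791 transcripts (10.4%), and those of 60 min for 616 (8.12%). A mean of 2 libraries carries less noise than a single library, so these shares are not on an equal footing. Pair by pair, the median absolute log2 difference was 0.39 between the 0 min libraries and 0.36 between the 60 min libraries. It was 0.35 between the times in replicate 1 and 0.32 in replicate 2. The pairs of times lie within a replicate number, and the pairs of replicates lie across numbers. Deviations of same-numbered libraries from their time's mean correlated at 0.287 between 0 and 60 min. These medians therefore cannot say whether time or replicate made the larger difference.

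Among the 7584 transcripts with at least 10 counts in all 4 libraries, the spread between replicates was largest in the most abundant footprints. Transcripts with a mean under 10 CPM are not among them. In the 100 transcripts with the highest mean RPF level, which took 27.6% and 23.3% of the counts at 0 min and 29.7% and 24.9% at 60 min, the median absolute log2 difference between replicates was 0.87 at 0 min and 0.91 at 60 min. Between the times it was 0.23 in replicate 1 and 0.24 in replicate 2. For 90 of the 100 the same replicate was the higher at both times, against 2178 of 3939 (55.3%) at 10 to 50 CPM. The most abundant footprint of all had 8461 and 15746 CPM at 0 min and 13980.5 and 26368 CPM at 60 min. Replicate 2 was the higher at both times there, and its times overlapped.

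**Figure D2:**
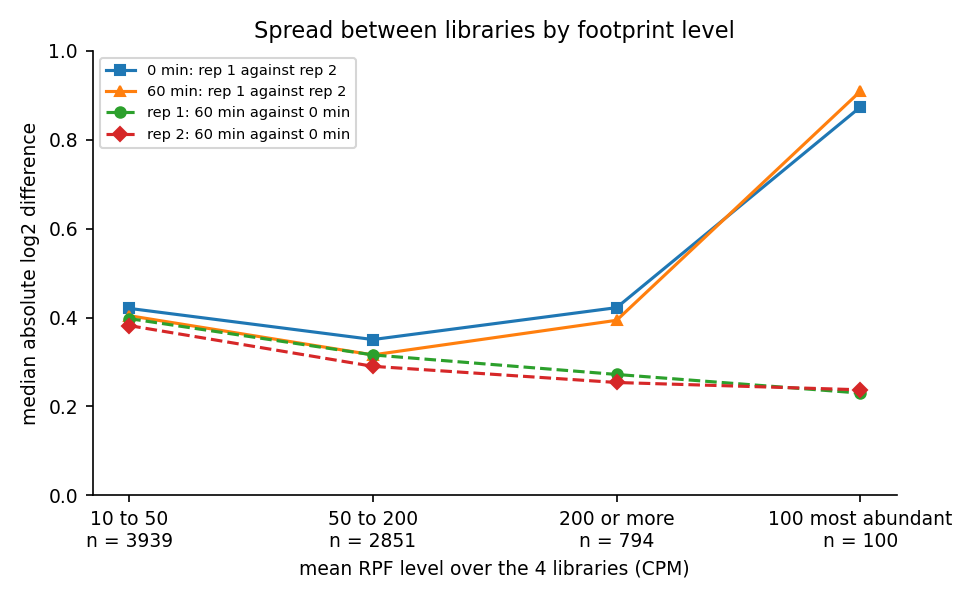
Median absolute log2 difference in RPF CPM (vertical axis) between the replicates of a time (solid lines) and between the times within a replicate number (broken lines). Transcripts with at least 10 counts in all 4 libraries are grouped by mean RPF level in CPM (horizontal axis). The 100 most abundant are also part of the class of 200 CPM or more. In the 100 most abundant, the replicates lie at 0.87 and 0.91 and the times at 0.23 and 0.24.

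Within a replicate number, the footprint changes of the 2 replicates were weakly related. The log2 ratio of 60 to 0 min in replicate 1 correlated with that in replicate 2 at r = 0.105 (Spearman's rho 0.0973) across 7584 transcripts. This is a description across transcripts, which share their libraries, and the 2 ratios have no library in common. The correlation was 0.0582 at 10 to 50 CPM, 0.144 at 50 to 200 CPM, 0.295 at 200 CPM or more and 0.518 in the 100 most abundant. Without the 5 of those 100 whose mean change was 2-fold or more it was 0.315. The change had the same sign in both replicates for 4009 transcripts (52.9%). In both replicates it was at least 2-fold upward for 22 transcripts and at least 2-fold downward for 14, and it was at least 2-fold in opposite directions for 13.

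**Figure D3:**
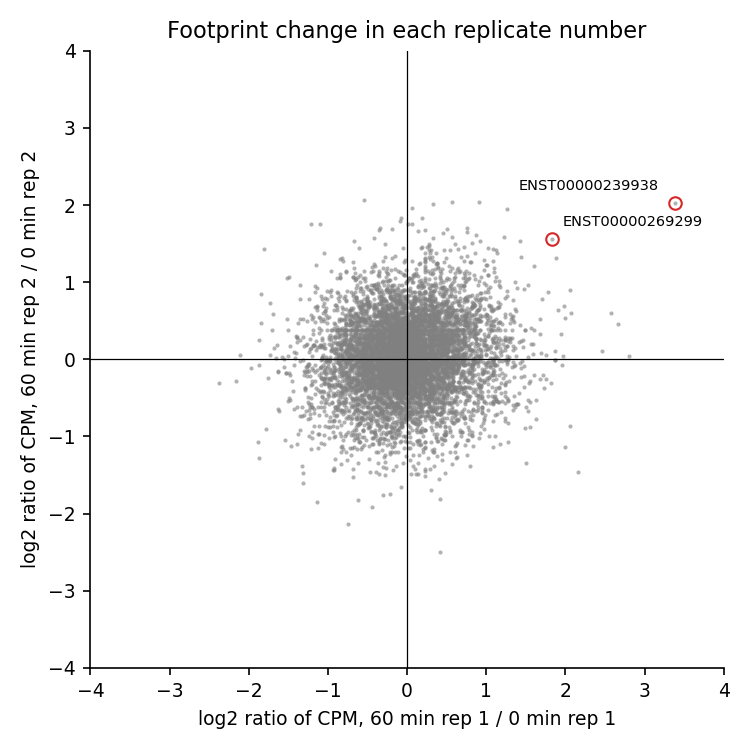
Log2 ratio of RPF CPM at 60 min to that at 0 min in replicate 1 (horizontal axis) and in replicate 2 (vertical axis), 1 point for each of 7584 transcripts with at least 10 counts in all 4 libraries. The cloud is nearly round (r = 0.105), and ENST00000239938 and ENST00000269299 (circles) lie at the upper right.

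Of the 100 most abundant footprints, 80 had a mean log2 change of under 0.5 in size. The mean change was 2-fold or more for 5, and 4 of these 5 were higher at 60 min. The transcript at rank 5 of mean level was the lower one, with 9544 and 4945 CPM at 0 min and 4362 and 2219 CPM at 60 min. Its libraries did not overlap, its log2 ratio was −1.13 in replicate 1 and −1.16 in replicate 2, and its fitted log2 change was −1.14 (SE 0.87). The transcript at rank 16 had 2713 and 1730 CPM at 0 min and 7126 and 3278 CPM at 60 min, again without overlap, and a fitted log2 change of 1.23 (SE 0.78). The one at rank 51 had 791 and 1613 CPM at 0 min and 1685 and 4365 CPM at 60 min. Its lowest 60 min library was just above its highest 0 min library. Those at ranks 76 and 84 were higher at 60 min within each replicate number, at 339 and 1060 CPM against 815 and 4102 CPM, and at 373 and 1151 CPM against 870 and 3439 CPM. In both, the times overlapped because replicate 2 of 0 min lay above replicate 1 of 60 min. With time alone, 0 of the 5 had an unadjusted edgeR p-value under 0.05, and the lowest was 0.0502. With the replicate block all 5 did, at 0.000602 to 0.0152, and their adjusted p-values were 0.755 or more. These transcripts were singled out after their values were seen.

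The RPF levels of the 5 transcripts at 360 min are given as values beside the others. The transcript at rank 5 had 8284 and 4984 CPM, rank 16 had 2791 and 1206 CPM, rank 51 had 905 and 1441 CPM, rank 76 had 364 and 1692 CPM and rank 84 had 680 and 1103 CPM. All 5 were picked for their distance from 0 min at 60 min. Their mRNA varied between libraries to different degrees. For the transcript at rank 5 it was 110 and 3094 CPM at 0 min and 244 and 85.1 CPM at 60 min. For the one at rank 76 it was 135 and 265 CPM at 0 min and 228 and 119 CPM at 60 min. At rank 16 the mRNA was at 288 and 533 CPM at 0 min and 351 and 207 CPM at 60 min. At rank 51 it was 32.1 and 256 CPM, then 52.0 and 23.1 CPM. At rank 84 it was 3965 and 679 CPM, then 1755 and 2685 CPM. In each of the 5, mRNA moved in opposite directions in replicates 1 and 2. The fitted mRNA log2 changes at ranks 5, 16, 51, 76 and 84 were −3.29, −0.56, −1.94, −0.21 and −0.06 (SE 0.49 to 1.30).

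A stricter reading of both replicates asked for a gap between the groups. Over all tested transcripts, both 60 min libraries lay above both 0 min libraries for 1472 (15.2%) and below for 1543 (16%). With library totals alone the split was less even, at 1115 above and 1780 below. With only 2 libraries a time, such an order often arises without any change, so these counts are not counts of changed transcripts. In the 7584 with at least 10 counts throughout, the lowest 60 min library was at least 2-fold above the highest 0 min library for 7 transcripts, and the highest 60 min library at least 2-fold below the lowest 0 min library for 6. With library totals alone these numbers were 3 and 7. At a gap of 1.5-fold they were 70 and 61, and at 3-fold both were 0. The 7 higher transcripts had log2 changes from 1.09 to 3.0, and the 6 lower ones from −1.45 to −1.08. Their mean RPF levels were modest, 24.7 to 113 CPM in the first group and 25.1 to 106 CPM in the second. In mRNA, 6 of the 7 were tested, with log2 changes from −0.23 to 1.04, and all 6 of the lower ones, with changes from −0.91 to 0.25.

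The transcripts that stood furthest from 0 min were ranked by unadjusted p-value, among those with a mean of at least 10 CPM and no overlap between the times. The 12 ranked first among 1433 higher transcripts had fitted log2 changes from 1.13 to 3.50 (SE 0.36 to 0.82). The 12 ranked first among 1463 lower transcripts had changes from −2.47 to −1.17 (SE 0.37 to 0.71). Adjusted p-values in edgeR's test were between 0.482 and 0.999. The 24 differed in their starting levels: the mean at 0 min ran from 2.12 to 167 CPM in the first set and from 23.3 to 110 CPM in the second. The higher set began lowest at the transcript of rank 3, which went from 1 and 3 counts to 23 and 17. It has the largest fitted change of the set, 3.50, which with so few counts at 0 min depends on the fit's prior count and is no bound. Within the higher set, the 60 min replicates differed by up to 4.26-fold, and within the lower set by up to 3.0-fold.

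**Figure D4:**
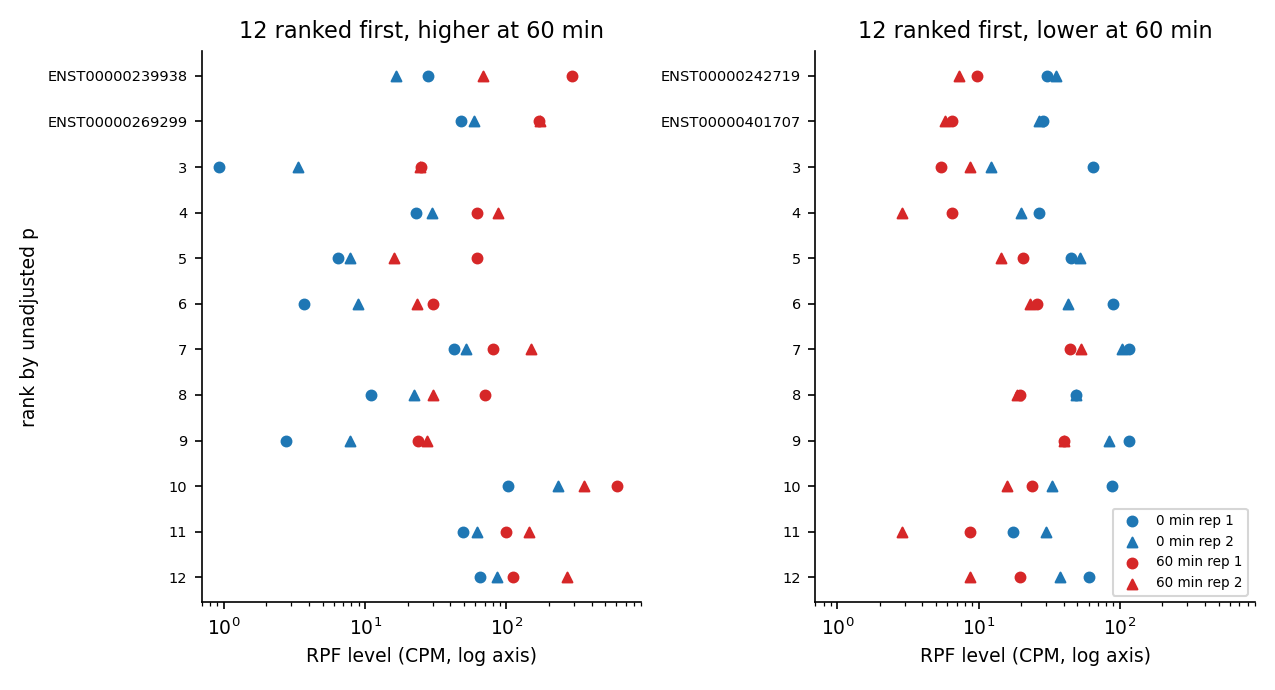
RPF levels in CPM (horizontal log axis) of the 12 transcripts ranked first by unadjusted p-value in each direction (vertical axis), with 0 min in blue, 60 min in red, circles for replicate 1 and triangles for replicate 2. The ranking required that the times do not overlap, and the distance between the replicates of a time varies from row to row.

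Highest in rank was ENST00000239938. At 0 min its footprints were counted 30 and 15 times, or 27.7 and 16.6 CPM. By 60 min the counts were 267 and 47, or 289 and 67.8 CPM. Both 60 min libraries were above both 0 min libraries, and replicate 1 of 60 min was the higher by 4.26-fold. The mean level was 22.1 ± 7.82 CPM (SD, n = 2) at 0 min and 178 ± 156 CPM at 60 min. In edgeR's quasi-likelihood test the log2 change was 3.0 (SE 0.56, 95% interval 1.82 to 4.18; unadjusted p = 4.99e-05, adjusted p = 0.482). With the replicate block the log2 change was 2.85 and edgeR's adjusted p-value 0.0384. DESeq2 gave a log2 change of 3.01 and an adjusted p-value of 0.0565. In edgeR the log2 change was 1.59 without 60 min replicate 1 and 3.70 without 60 min replicate 2. These leave-out fits kept 1 library at 60 min. At 360 min the levels were 71.3 and 69.2 CPM, above both 0 min libraries and just above the lower 60 min library. Its mRNA was at 10.3 and 13.1 CPM at 0 min and 23.1 and 25.0 CPM at 60 min, also without overlap, on 8 to 27 counts per library. It was the one of the 4 transcripts given by identifier whose mRNA libraries of 0 and 60 min did not overlap. Over all 9693 transcripts tested in mRNA, both 60 min libraries lay above both 0 min libraries for 13.4% and below for 12.3%.

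The second, ENST00000269299, was counted 52 and 53 times at 0 min and 158 and 120 times at 60 min, or 48.0 and 58.7 CPM against 171 and 173 CPM. The 60 min libraries lay at least 2.91-fold above those of 0 min, the widest gap among the 7584 transcripts compared in this way. From 53.3 ± 7.59 CPM (SD, n = 2) the mean level went to 172 ± 1.55 CPM. The fitted log2 change was 1.69 (SE 0.36, 95% interval 0.92 to 2.46), and edgeR's p was 0.000239 unadjusted and 0.999 adjusted. It stayed between 1.56 and 1.86 when any 1 of the 4 compared libraries was left out. At 360 min its footprints were at 76.9 and 71.0 CPM, between those of the other times. Its mRNA did not show the same pattern: it was at 119 and 55.3 CPM at 0 min and 84.3 and 65.7 CPM at 60 min, overlapping, with a log2 change of −0.23 (SE 0.46). Translational efficiency (TE), footprints per unit of mRNA, was tested in 1 fit of all 12 libraries as an assay-by-time interaction. The log2 change in TE of ENST00000269299 was 1.92 (SE 0.56), and edgeR's p was 0.00382 unadjusted and 1.00 adjusted.

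Among the lower transcripts, ENST00000242719 was ranked first, going from 33 and 32 counts to 9 and 5. These were 30.4 and 35.4 CPM against 9.74 and 7.21 CPM. The log2 change was −1.92 (95% interval −3.04 to −0.80). ENST00000401707 was ranked second, going from 31 and 24 counts to 6 and 4, or 28.6 and 26.6 CPM against 6.49 and 5.77 CPM, and a log2 change of −2.13 (95% interval −3.38 to −0.89). In both, the replicates of each time lay close together and the times did not overlap. The adjusted edgeR p-value was 0.999 for each. Leaving out any 1 of the compared libraries kept the log2 change between −2.17 and −1.73 for ENST00000242719 and between −2.23 and −2.05 for ENST00000401707. At 360 min the first stood at 18.2 and 18.7 CPM and the second at 15.4 and 26.2 CPM, above both 60 min libraries in each case.

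**Figure D5:**
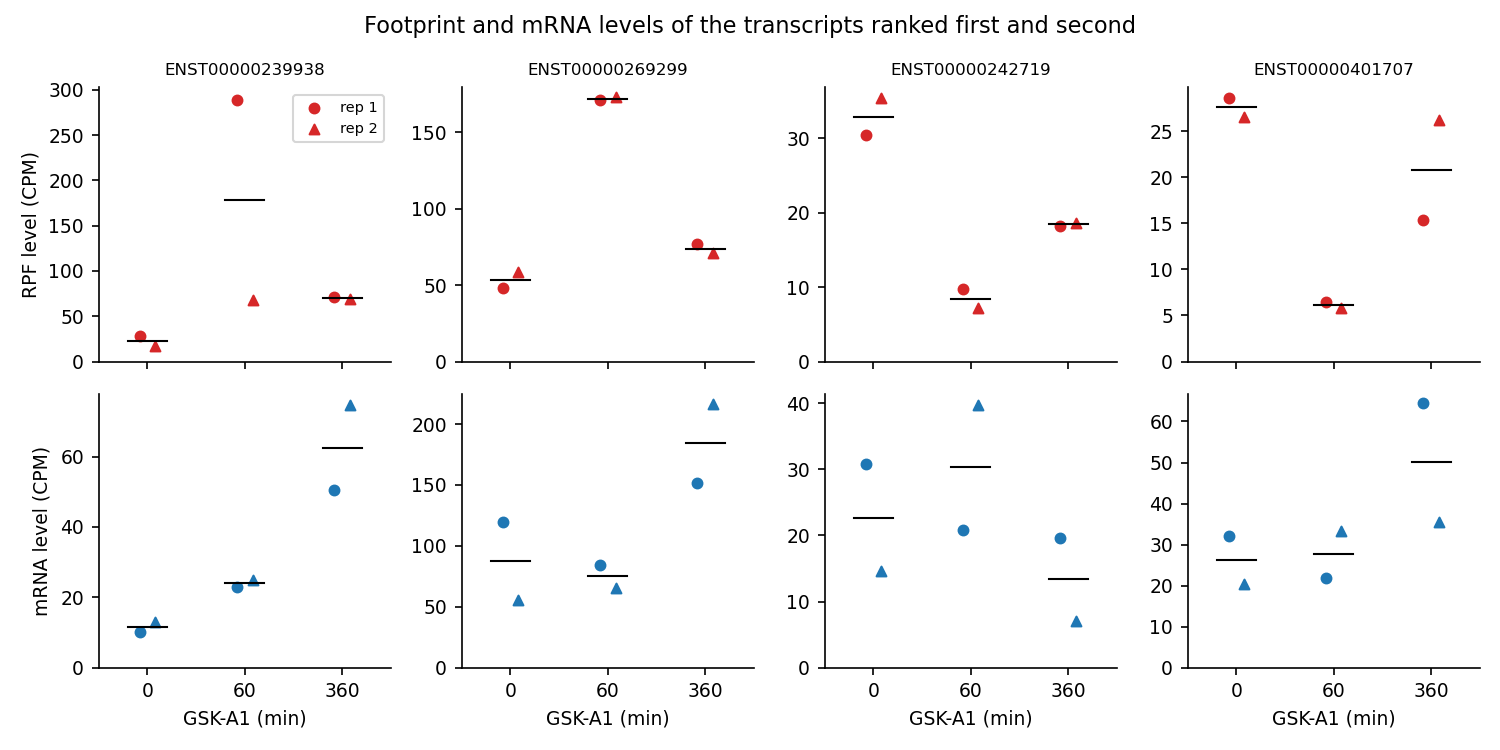
RPF level (upper row, red) and mRNA level (lower row, blue) in CPM against minutes of GSK-A1 for the 4 transcripts given by identifier, with circles for replicate 1, triangles for replicate 2 and bars for the mean of 2. The RPF libraries of 60 min stand apart from those of 0 min in each, as the ranking required. The mRNA libraries of the same times overlap in all but ENST00000239938. Over all transcripts tested in mRNA, they lay apart upward for 13.4% and downward for 12.3%.

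Footprint changes at 60 min were set beside mRNA of the same labelled times, which was sequenced in separate libraries. Of the 12 lower transcripts ranked first, 11 were tested in mRNA, with log2 changes from −0.79 to 0.41 and a median of 0.06, and 0 of the 11 had an unadjusted p-value under 0.05 (1.37% of all mRNA transcripts tested did). Of the 12 higher ones, 8 were tested, with log2 changes from −0.23 to 1.04 and a median of 0.30, and again 0 had an unadjusted p-value under 0.05. The direction was the same in footprints and mRNA for 4 of the 11 and for 6 of the 8. In the interaction test of TE, 7 of the 11 lower and 3 of the 8 higher transcripts had an unadjusted edgeR p-value under 0.05, against 1.75% of all transcripts tested. The footprint change that chose these transcripts is itself part of TE, so this count is no independent support. All 19 had an adjusted p-value of 1.00 in that test.

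Beyond the ranked transcripts, footprint and mRNA sets were compared as a whole. Of the 186 transcripts with an unadjusted footprint p-value under 0.05 that were also tested in mRNA, 0 had an unadjusted mRNA p-value under 0.05, where 107 of all 8632 did. The median mRNA log2 change was 0.01 in the 85 with higher footprints and 0.03 in the 101 with lower footprints, beside −0.01 over all. In the higher set 43 of 85 had a positive mRNA change, and in the lower set 46 of 101 had a negative one. In the other direction, 1332 tested transcripts had both mRNA libraries of 60 min above both of 0 min, and their median footprint log2 change was −0.01. The 1234 with both mRNA libraries below had a median footprint change of −0.03. Both medians were close to that of all transcripts, −0.01.

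Grouping by mRNA level at 0 min, which is measured in other libraries than the footprints, separated precision more than direction. From the lowest to the highest of 4 equal groups by mRNA level, the median footprint log2 change was 0.01, −0.01, −0.02 and −0.01. The median size of the change was 0.38 in the lowest group and 0.22 in the highest, and the median SE 0.59 and 0.42. Unadjusted p-values under 0.05 made up 2.69%, 2.90%, 2.36% and 1.29% of the 4 groups, beside 2.31% overall. The highest group held 69.6% of the footprint counts of the 4 libraries.

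Few transcripts were seen at one time alone. For 131 transcripts both 0 min libraries had 0 counts and both 60 min libraries had at least 1, and the highest sum over the 60 min libraries was 10 counts. Its mRNA was counted 1 and 3 times at 0 min and 5 and 0 times at 60 min. The reverse pattern was found for 305 transcripts, where the highest sum was 14. Within each replicate number the 0 min library was the deeper one, and a deeper library lists more transcripts. A count of 0 allows up to 3 counts, which is 2.77 and 3.32 CPM at 0 min and 3.25 and 4.33 CPM at 60 min and covers counting error only. Footprints lost or gained outright were therefore not detectable in transcripts below a few CPM.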

How the data were processed

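The authors deposited 1 table a library of unnormalized whole-number counts by Ensembl transcript, per the file headers. Footprints came from RNase I digestion of ribosome fractions and gel selection of short fragments, per the labels' protocols. The submitters' processing notes name cutadapt 2.8, Bowtie 1.2.3 and STAR 2.7.10a, with no role. The genome build, the annotation, the counting program, the counted region and the use of strand are not given in the sources used here, so transcripts with near-identical copies or overlapping neighbours are uncertain. Transcripts absent from a table were set to 0.

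Tests used edgeR 4.0.16 in R 4.3.3 (filterByExpr, TMM, quasi-likelihood test, time as the only factor, all 6 RPF or all 6 mRNA libraries in a fit), with Benjamini-Hochberg adjustment over all transcripts tested. The SE was derived from the log2 change and its F statistic, and 95% intervals use the test's degrees of freedom. The filter kept at least 97.6% of the counts of each compared library. CPM uses TMM-scaled totals. The RPF fit was also run on simulated counts. These held no replicate effect, so that run does not cover same-numbered libraries that deviate together. DESeq2 1.42.0, other scalings and filters, a replicate block and leaving out libraries were tried as alternatives.

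Groups and numbers come from the titles, and the files of the 12 libraries hold 0 columns of other samples. The transcripts, lists and rules were chosen with earlier results of these data known. The rule for named genes took the 12 higher and 12 lower transcripts with the smallest unadjusted p-value at a mean of at least 10 CPM with no overlap; 2 identifiers are printed for each direction, because no gene names are paired with them. The gene lists drawn up for the comparison and the marker lists were not computed, and no sequence is shown, for the same reason.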

Additional observations from a re-analysis of the deposited data

How the results depend on the processing

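At an adjusted threshold of 0.05, 11 of 14 alternatives called 0 RPF transcripts. The number was 1 without a filter on low counts and 1 with the replicate block. Both times it was ENST00000239938 (edgeR adjusted p-values 4.43e-06 and 0.0384). The third exception left out 60 min replicate 2, so that only replicate 1 stood for that time. The unfiltered fit had infinite prior degrees of freedom, so no transcript's own replicates counted. In mRNA and TE, no filter gave 17 and 3 transcripts, and every other alternative of both gave 0. Unadjusted p-values under 0.05 numbered 430 without a filter, 96 with DESeq2, 363 in the 4 compared libraries alone, 433 with the block, and from 94 (without 0 min replicate 1) to 422 (without RPF 360 min replicate 2) when a library was left out. Intervals within 2-fold numbered 2766 in the 4 libraries alone, 2932 with the block, and 0 to 2965 with a library left out. With at least 10 counts in every library, 983 transcripts were higher and 964 lower without overlap. With 3 compared libraries in place of 4, the test of overlap is looser, and the numbers ran from 2856 to 3263 higher and from 2990 to 3559 lower. Where a compared time kept 1 library, that library was assumed to vary like the rest. Footprint gaps of 2-fold or more were 1 upward and 0 downward at a minimum of 50 counts, in 2341 transcripts. No direction of the 4 identifiers reversed, but their choice required no overlap between the times, which largely fixed this outcome. The alternatives for intervals, unadjusted counts, gaps, replicate correlations and left-out mRNA and TE libraries were chosen after seeing the data; the gene lists were not run.

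Whether libraries with the same number share a day or culture is not stated. Deviations of same-numbered RPF libraries from their time's mean correlated at 0.287 between 0 and 60 min, 0.309 between 0 and 360 min and 0.280 between 60 and 360 min. With the replicate block, transcripts at an unadjusted p-value under 0.05 went from 223 to 433 in all and from 0 to 6 among the 100 most abundant. The block gave 0 calls in mRNA and in TE.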
